A study of Mus musculus with 2 samples.

Results

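The genes described here encode the core of transforming growth factor beta (TGF-beta) signalling: the ligand gene Tgfb1, the receptor genes Tgfbr1, Tgfbr2 and Tgfbr3, the signal carriers and inhibitor Smad2, Smad3, Smad4 and Smad7, the corepressor gene Skil and the target gene Tgfbi. They were found by name, as every probe set to which the platform annotation gave exactly 1 gene symbol, current or former, among these 10 genes. This gave 26 probe sets of the 45037 on the array, of which 34945 carried 1 symbol and stood for 18193 genes. The members were chosen by name with the Satb1 minus GFP differences in intensity on these arrays already known, that of Tgfbi included, so those differences are given as a description, without a test.

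RNA was measured on 2 Affymetrix arrays, 1 labelled Satb1 and 1 labelled GFP. The cells were wild-type C57BL6J mouse marrow cells labelled LSK Flt3-, a stem cell-rich fraction without lineage markers or Flt3 and with Sca-1 and c-Kit. They had been transduced with Satb1, whose product is a chromatin-organising nuclear protein with a preference for AT-rich DNA, or with the fluorescent protein GFP as control. With 1 array per group, no difference has a p-value or an error from replicates. The sources used here do not name the vector and promoter, any sorting after transduction, or how many animals or cultures were used. RNA of the defining genes bore on the label in part: Kit read 3388.0 on the array labelled Satb1 and 3293.0 on the array labelled GFP, and Flt3 was also present, at 1334.3 on the array labelled Satb1 and 1390.4 on that labelled GFP. Of the 5 Satb1 probe sets, 3 were above the floor defined below on both arrays, and these read 909.1, 908.2 and 164.9 on the array labelled Satb1 and 1115.7, 963.5 and 288.4 on the array labelled GFP, all lower on the array labelled Satb1. Whether they lie within the transduced sequence is unknown, so each array goes by its label here, and every direction depends on the labels being right.

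TGF-beta is secreted in a latent form, and once released it binds the type II receptor Tgfbr2, which phosphorylates the type I receptor Tgfbr1. Tgfbr1 phosphorylates Smad2 and Smad3, which join Smad4 and act on genes in the nucleus. Smad7 blocks the receptors, and SnoN, the product of Skil, represses Smad target genes. In marrow the pathway is known for holding blood stem cells out of the cell cycle.

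Tgfbi, which encodes a secreted matrix protein named for its induction by TGF-beta, carried the only 2-fold difference among the 10 genes. The 250 bases before its start are therefore shown, from RefSeq on GRCm38.p6 at chr13:56609336-56609585, plus strand, with the letters of CAGAC, a core sequence bound by Smad3 and Smad4, in capitals on whichever strand they were found.

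Tgfbi promoter: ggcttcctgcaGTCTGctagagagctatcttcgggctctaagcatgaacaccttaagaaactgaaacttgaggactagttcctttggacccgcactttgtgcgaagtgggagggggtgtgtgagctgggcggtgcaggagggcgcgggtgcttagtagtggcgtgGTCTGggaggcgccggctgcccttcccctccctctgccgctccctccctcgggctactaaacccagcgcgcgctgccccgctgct

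The window held CAGAC 2 times, both on the antisense strand (printed as the reverse complement), beginning 239 and 85 bases before the start. CAGAC was present at least 1 time, on either strand, in 42.2% of the 32851 promoter windows of this length. The share of windows with 2 or more was not counted. The motif TGANTCA, bound by AP-1 factors that partner with Smads, was not found on either strand and occurred in 6.75% of all windows. A TGANTCA run can end on the first letters of a CAGAC run, which did not occur in this window. Windows were examined for 5 of the 10 genes: Tgfbi, Tgfb1, Tgfbr1, Tgfbr2 and Smad3. Member windows on 1 chromosome were left out, so absence from this set does not mean that a gene had no window. CAGAC was found 1 time in the Tgfbr2 window and 1 time in 1 of the 2 Tgfbr1 windows, and not in the Tgfb1 or Smad3 windows. The Tgfbi window was 37.6% A and T, against a median of 47.6% over all windows. Tgfb1 had 24.8% and Smad3 30.8% A and T. A match is a run of letters and not a measured site.

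Values are MAS5 intensities, each a single brightness per probe set on a linear scale. A floor of 61.7, the median over all intensities of the pair of arrays, replaced every lower intensity before log2 differences were taken, as Satb1 minus GFP. Of the 26 probe sets, 18 were above the floor on both arrays, 1 on the array labelled GFP alone and 7 on neither. Each gene was represented by its brightest probe set, and on that basis all 10 genes were above the floor on both arrays. Each probe set has its own brightness, so "brightest" refers to the intensity of a probe set and does not rank genes by amount of transcript. Between probe sets of the same gene, measured on the same RNA, the SD of the log2 difference was 0.36 at mean intensities under 200, 0.28 from 200 to 500, 0.19 from 500 to 2000 and 0.13 over 2000. This is the only technical spread the data hold, and it leaves out the spread between cultures and preparations.

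Of the 10 genes, 1 was at least 2-fold higher on the array labelled Satb1 (Tgfbi) and 0 were 2-fold lower. Over all 11048 genes above the floor on at least 1 array, 0.272% were 2-fold higher, 0.86% 2-fold lower and 1.13% 2-fold apart in either direction. This background depended on the scaling, with 30 genes higher and 95 lower as reported and 54 higher and 61 lower after quantile normalization. The other 9 genes lay between -0.24 and 0.36 on the log2 scale. The median log2 difference was 0.09 over the 10 genes and 0.03 over the 9 without Tgfbi, against -0.02 over all 10316 genes above the floor on both arrays.

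**Figure D1:**
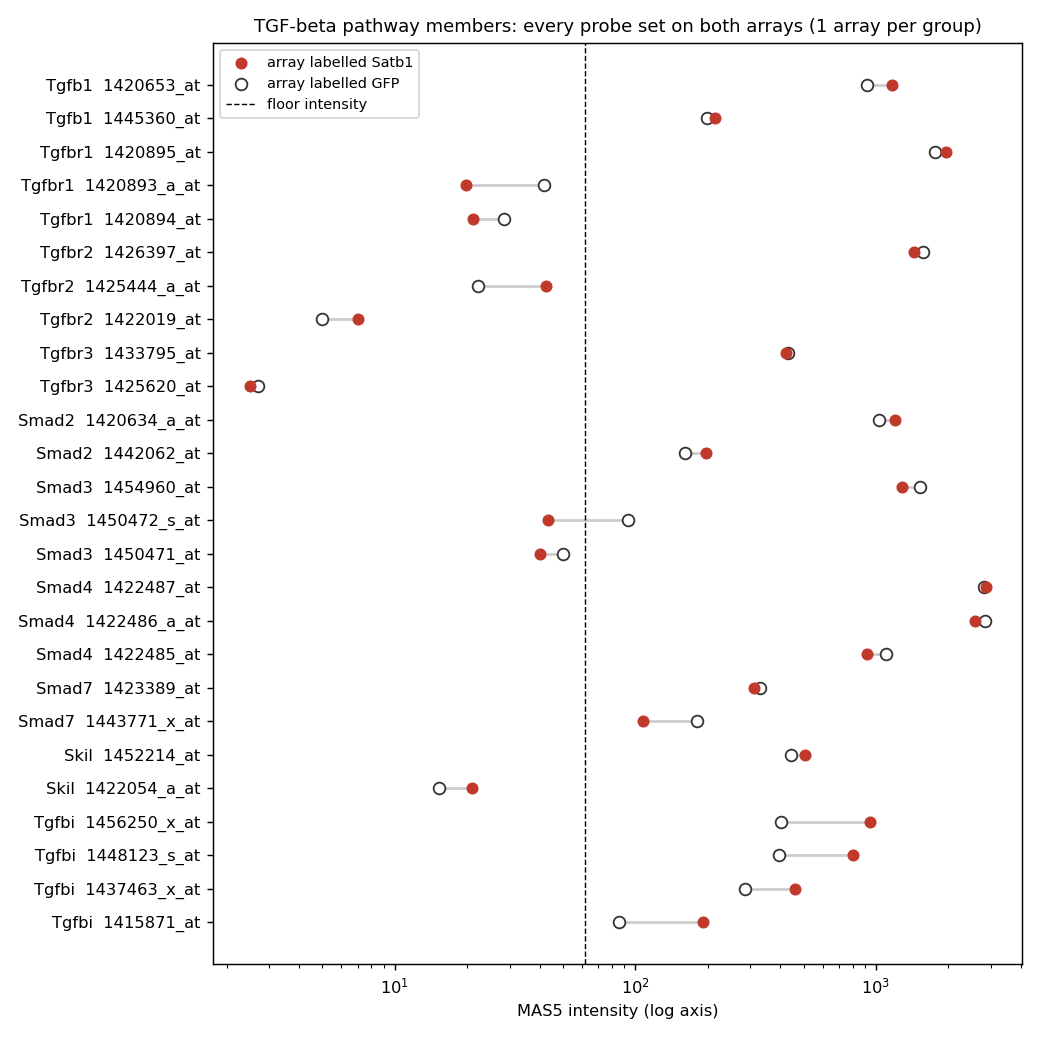
MAS5 intensity (log axis) of each of the 26 probe sets, with the array labelled Satb1 as filled and the array labelled GFP as open points, 1 array each, and the floor of 61.7 as a dashed line. All 4 Tgfbi probe sets read higher on the array labelled Satb1, while the bright probe sets of the other genes nearly coincide on both arrays.

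All 4 Tgfbi probe sets were above the floor on both arrays, and all 4 were higher on the array labelled Satb1. 1456250_x_at, the brightest, read 946.6 on the array labelled Satb1 and 402.1 on the array labelled GFP, a 2.35-fold difference (log2 1.24). 1448123_s_at read 803.1 on the array labelled Satb1 and 394.1 on that labelled GFP, a log2 difference of 1.03. The unsuffixed probe set 1415871_at, the dimmest, read 191.8 on the array labelled Satb1 and 85.8 on the array labelled GFP, a log2 difference of 1.16. 1437463_x_at had the smallest difference, at 459.4 on the array labelled Satb1 and 286.2 on the array labelled GFP, or 0.68 on the log2 scale. Thus 3 of the 4 were at least 2-fold higher and, of the 26 probe sets of all members, 3 were 2-fold higher and 0 lower. Of all 20173 probe sets above the floor on at least 1 array, 0.327% were 2-fold higher, 0.853% 2-fold lower and 1.18% apart in either direction.

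The mean log2 difference over the 4 Tgfbi probe sets was 1.03 ± 0.24 (SD over 4 probe sets on the same RNA, which are not replicates). Probe sets ending in _x_at or _s_at can also match other transcripts, and the difference of the probe set without such a suffix lay within the range of the other 3. Of 6545 probe sets with a mean intensity within 2-fold of that of 1456250_x_at, 12 (0.183%), itself included, were at least as far apart. Counted in the same way, the share was 0.578% for 1448123_s_at, 1.09% for 1415871_at and 4.09% for 1437463_x_at. Among all genes above the floor, each by its brightest probe set, Tgfbi had the 21st largest difference toward the array labelled Satb1. Of 816 genes that had 4 or more probe sets exceeding the floor on both arrays, 1, Tgfbi, had all of them higher by at least 0.5 on the log2 scale, and 1 had all of them lower by that amount. With 3 or more such probe sets, 2 of 2028 genes had all of them higher and 3 all lower by that amount. With 2 or more, the counts were 19 and 31 of 4840 genes. The value of 0.5 was chosen after the differences were seen, and Tgfbi itself has 4 probe sets.

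Tgfbi is abundant in monocytes and macrophages, so the marker genes of those cells were set beside it. Of 10 measured marker genes, 0 were 2-fold apart, and their summed intensity was 14463 on the array labelled Satb1 and 14719.9 on the array labelled GFP. The receptor gene Csf1r read 3548.5 on the array labelled Satb1 and 4099.0 on the array labelled GFP, and Ccr2 read 2221.2 on the array labelled Satb1 and 3172.4 on that labelled GFP. Of the 7 above the floor on both arrays, 3 read higher on the array labelled Satb1 and the other 4 read lower. The higher ones were Lyz2, at 7279.9 on the array labelled Satb1 and 5936.9 on that labelled GFP (log2 0.29), Cx3cr1 (log2 0.19) and Adgre1 (log2 0.18). C1qa and Mrc1, markers of mature macrophages, were below the floor on both arrays. Of 9 measured granulocyte marker genes, 5 were 2-fold higher and 1 was 2-fold lower, against 0.272% and 0.86% of all genes above the floor. Those 5 were Camp (log2 2.16), Ltf (log2 1.71), S100a8 (log2 1.71), Lcn2 (log2 1.56) and S100a9 (log2 1.52). Ngp (log2 0.93) and Elane (log2 0.72) were higher by less, and the median over the 9 was 1.52. The gene 2-fold lower was Csf3r, at 494.3 on the array labelled Satb1 and 1239.0 on that labelled GFP (log2 -1.33). Mpo, the brightest of the list, was also lower, at 16452.0 on the array labelled Satb1 and 18391.1 on that labelled GFP. The summed intensity of the 9 genes was 36988 on the array labelled Satb1 and 26709.8 on the array labelled GFP. Of 7 measured mast cell and basophil markers, 3 were 2-fold lower and 0 higher, with sums of 10141 on the array labelled Satb1 and 16524 on the array labelled GFP. The part of these markers in the Tgfbi difference was not tested. In RNA of mixed cells, more cells of a type and more RNA per cell cannot be told apart.

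**Figure D2:**
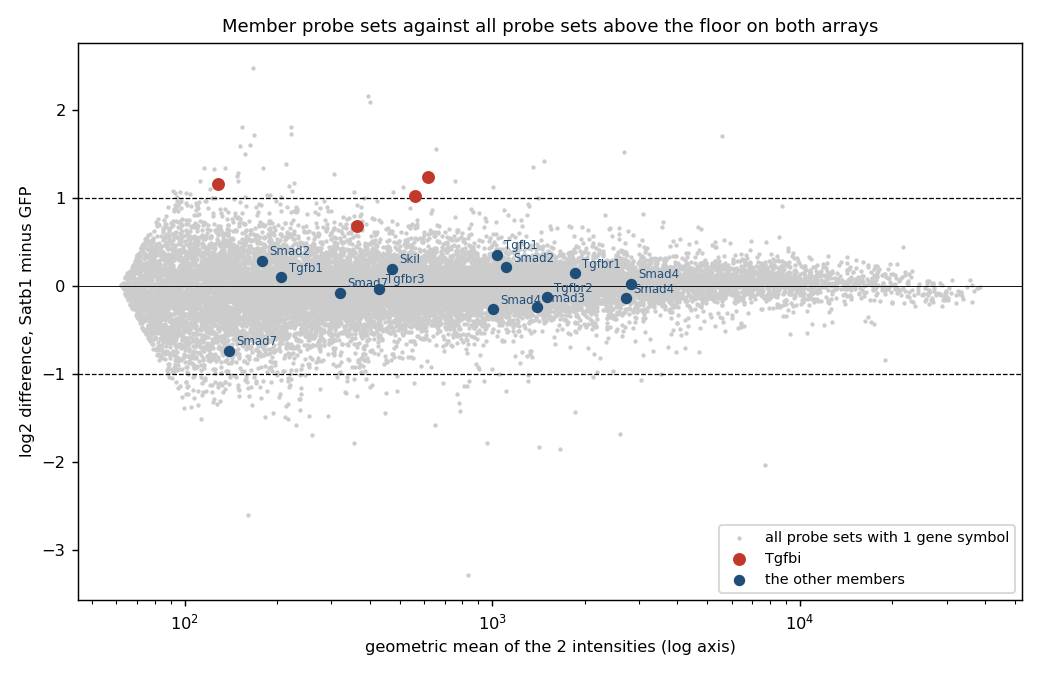
Log2 difference (Satb1 minus GFP) against the geometric mean of both intensities (log axis) for the 18506 probe sets with 1 gene symbol that passed the floor on both arrays (grey), with Tgfbi in red and the other members in blue. Of the 4 Tgfbi points 3 lie above the upper dashed line, which marks 2-fold, and the other 14 member points lie between the dashed lines.

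Tgfb1, the ligand gene, had the next largest difference by brightest probe sets. By 1420653_at, the brighter probe set, it read 1170.3 on the array labelled Satb1 and 914.4 on the array labelled GFP, a 1.28-fold difference (log2 0.36). The other, 1445360_at, read 213.6 on the array labelled Satb1 and 199.2 on that labelled GFP, a log2 difference of 0.10. Both were higher on the array labelled Satb1, and among probe sets of like intensity 10.7% were at least as far apart as the brighter and 76.1% as the dimmer. Platelets and megakaryocytes are rich in Tgfb1. All 7 measured marker genes of those cells were higher by some amount and 0 by 2-fold, with a summed intensity of 31329.7 on the array labelled Satb1 and 26938 on the array labelled GFP. Their log2 differences ran from 0.05 (Gp9) to 0.81 (Ppbp), with a median of 0.13. Of all 10316 genes above the floor on both arrays, 4712 were higher and 5601 lower by some amount. The part of these markers in the Tgfb1 value was not tested.

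Each of the 3 receptor genes had 1 probe set above the floor. Tgfbr1, the type I receptor kinase, read 1951.4 on the array labelled Satb1 and 1763.4 on the array labelled GFP, a log2 difference of 0.15. Tgfbr2, the ligand-binding type II kinase, read 1445.1 on the array labelled Satb1 and 1575.4 on that labelled GFP, a log2 difference of -0.12. Both of these differences were within the SD of 0.19 between probe sets of 1 gene at that intensity. Tgfbr3, encoding the co-receptor betaglycan, read 423.5 on the array labelled Satb1 and 432.4 on the array labelled GFP, a log2 difference of -0.03 whose sign turned after quantile normalization and after median centring. The other 5 receptor probe sets read between 2.5 and 42.7 on the array labelled Satb1 and between 2.7 and 41.8 on the array labelled GFP, all below the floor. With the mean of log2 intensity over all probe sets of a gene, dim ones included, the difference was -0.45 for Tgfbr1 and 0.29 for Tgfbr2, so both directions rest on the choice of the bright probe set. The sources used here do not say which stretch of each transcript the bright and the dim probe sets cover.

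The receptor-activated Smads stood on opposite sides of 0. Smad2 was higher on the array labelled Satb1 by both of its probe sets. 1420634_a_at read 1197.5 on the array labelled Satb1 and 1032.2 on the array labelled GFP (log2 0.21), and 1442062_at read 197.5 on the array labelled Satb1 and 161.4 on that labelled GFP (log2 0.29). Smad3 read 1287.6 on the array labelled Satb1 and 1520.3 on the array labelled GFP by its brightest probe set, a log2 difference of -0.24. Another Smad3 probe set, 1450472_s_at, was above the floor on the array labelled GFP alone, at 43.4 on the array labelled Satb1 and 93.4 on the array labelled GFP, at least 1.51-fold lower, and the third was below the floor on both. Among probe sets of like intensity, 27.6% were at least as far apart as the brighter Smad2 probe set and 21.4% as the brightest Smad3 one, so neither stood out from the background.

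Smad4, the partner shared with the bone morphogenetic protein (BMP) branch, was bright by all 3 of its probe sets. They read 2857.3, 2587.8 and 918.1 on the array labelled Satb1 and 2803.8, 2849.1 and 1098.9 on the array labelled GFP, with log2 differences of 0.03, -0.14 and -0.26. The probe sets thus differed in sign, and that of the brightest turned after quantile normalization and with the mean over all 3, which was -0.12.

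The inhibitor gene Smad7 read 311.6 on the array labelled Satb1 and 328.2 on the array labelled GFP by 1423389_at, a log2 difference of -0.07 that was 0.02 after quantile normalization. Its second probe set, 1443771_x_at, of the kind that can match other transcripts, read 108.0 on the array labelled Satb1 and 179.6 on that labelled GFP, a difference of -0.73. These are 0.66 apart, the widest gap between probe sets of a member gene above the floor. The SD between probe sets is 0.36 under an intensity of 200, the range of 1443771_x_at, and 0.28 from 200 to 500, that of 1423389_at. It is the spread of single probe sets within a gene and not that of a gap between 2 of them. Skil read 507.6 on the array labelled Satb1 and 442.4 on the array labelled GFP, a log2 difference of 0.20, and 1422054_a_at, the dimmer Skil probe set, lay under the floor on either array. Smad7 and Skil are themselves induced by TGF-beta in many cells, and by brightest probe sets neither differed by as much as Tgfbi. The part of TGF-beta signalling in any of these values was not tested.

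**Figure D3:**
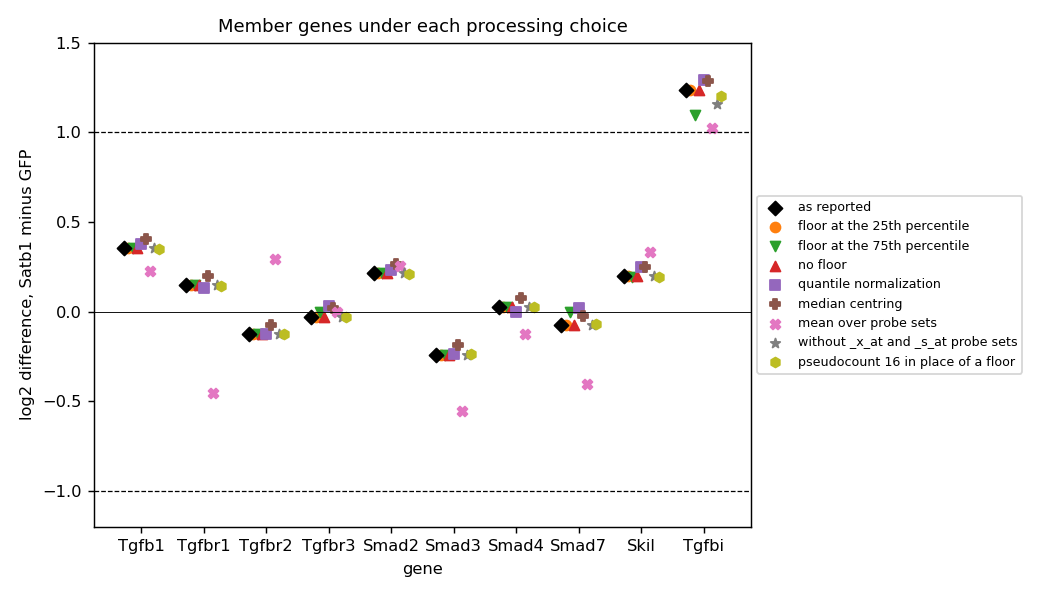
Log2 difference (Satb1 minus GFP) of the 10 genes as reported (black diamonds) and under 8 other processing choices (coloured symbols), with dashed lines at 2-fold. Tgfbi stays between 1.03 and 1.29 under all 8, and no other gene reaches 2-fold under any of them.

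Other genes of the pathway were described by lists, which were drawn up with earlier results of these data known. In the list of ligands and their activation, 20 genes were measured, 10 were above the floor on both arrays and 0 were 2-fold apart, with a median log2 difference of -0.09 that was 0.01 after quantile normalization. Ltbp3, encoding a binding protein of latent TGF-beta, had the largest difference, at 1215.0 on the array labelled Satb1 and 1729.4 on the array labelled GFP (log2 -0.51), and its other 2 probe sets that passed the floor on both arrays were also lower. Thbs1, whose product thrombospondin-1 can activate latent TGF-beta, read 1177.2 on the array labelled Satb1 and 987.1 on that labelled GFP (log2 0.25). The brightest were Nrros, which holds latent TGF-beta on myeloid cells, at 3965.2 on the array labelled Satb1 and 4308.5 on the array labelled GFP, and the elastic-fibre protein gene Emilin1, at 1980.8 on the array labelled Satb1 and 2304.8 on that labelled GFP.

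In the list of receptors and co-receptors 13 genes were measured and 0 were 2-fold apart. The median over the 9 above the floor on both arrays was -0.03, and 0.02 after median centring. Besides Tgfbr1, the largest differences were those of Vasn, encoding the TGF-beta binding protein vasorin (93.1 on the array labelled Satb1 and 115.3 on the array labelled GFP, log2 -0.31), and of Eng, encoding the co-receptor endoglin (609.1 on the array labelled Satb1 and 697.5 on that labelled GFP, log2 -0.20). The brightest, Sdcbp (9081.6 on the array labelled Satb1 and 9149.4 on the array labelled GFP) and Strap (4339.8 on the array labelled Satb1 and 4110.2 on that labelled GFP), were nearly level.

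Among Smads and Smad partners, the median over 25 genes was 0.03. Of 28 measured genes, 1 was 2-fold higher and 0 were lower, against 0.272% and 0.86% of all genes above the floor. The higher one was Fos, an AP-1 subunit gene, at 2406.4 on the array labelled Satb1 and 899.4 on the array labelled GFP (log2 1.42). Further AP-1 genes, picked once their values were known, differed by less: Atf3 read 144.0 on the array labelled Satb1 and 76.3 on the array labelled GFP (log2 0.92), and Jun read 1263.4 on the array labelled Satb1 and 867.5 on that labelled GFP (log2 0.54), while Junb differed by 0.04. Runx1, a blood transcription factor gene also named afterwards, differed by 0.75 by its brightest probe set, but its 6 probe sets above the floor ranged from -1.10 to 0.75. The brightest genes, Psmd11 (5457.6 on the array labelled Satb1 and 4900.5 on the array labelled GFP) and Sp1 (4137.9 on the array labelled Satb1 and 4209.2 on that labelled GFP), were within 2-fold.

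Among inhibitors and ubiquitin regulators, the median over 24 genes was 0.01. Of 25 measured genes, 1 was 2-fold lower and 0 were higher, against 0.86% and 0.272% of all genes above the floor. That gene was Smurf1, encoding a ubiquitin ligase for Smads and receptors, which read 58.5 on the array labelled Satb1 and 131.2 on the array labelled GFP and was at least 2.13-fold lower, with a dimmer probe set under the floor on either array. It was not 2-fold apart with the mean over probe sets, with a pseudocount of 16 in place of the floor, or when the 75th percentile served as floor. The brightest, Ppp1ca (11256.4 on the array labelled Satb1 and 10835.2 on the array labelled GFP) and Fkbp1a, whose product holds Tgfbr1 inactive (10125.3 on the array labelled Satb1 and 9850.8 on that labelled GFP), were nearly level.

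Of 37 measured genes known as TGF-beta targets, 2 were 2-fold higher, Tgfbi and Id3, and 0 were lower. Over all genes above the floor, 0.272% were higher and 0.86% lower by as much. Tgfbi was known to differ when the list was drawn up, and among the 34 targets that are not members 1 was 2-fold apart. Id3, an inhibitor of basic helix-loop-helix factors, read 145.3 on the array labelled Satb1 and 55.0 on the array labelled GFP and was at least 2.35-fold higher. Its 1 probe set was under the floor on the array labelled GFP, and Id3 was not 2-fold apart when the 75th percentile served as floor. The median over the 25 targets above the floor on both arrays was 0.06, with 14 higher and 11 lower by some amount. The brightest were Tsc22d1, a TGF-beta-stimulated gene, at 10393.1 on the array labelled Satb1 and 7051.9 on the array labelled GFP (log2 0.56) by a probe set of the kind that can match other transcripts, and Myc, at 6078.7 on the array labelled Satb1 and 7525.5 on that labelled GFP (log2 -0.31). The 6 Tsc22d1 probe sets above the floor ranged from -0.33 to 0.67. Id2, named after its values were seen, differed by 0.71 by its brightest probe set, while Id1 differed by 0.06. Cdkn1a, encoding a cell cycle inhibitor and also named afterwards, read 1384.3 on the array labelled Satb1 and 1672.4 on the array labelled GFP (log2 -0.27), while a second probe set went the other way, at 902.1 on the array labelled Satb1 and 577.2 on that labelled GFP (log2 0.64). The list's members went both ways.

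**Figure D4:**
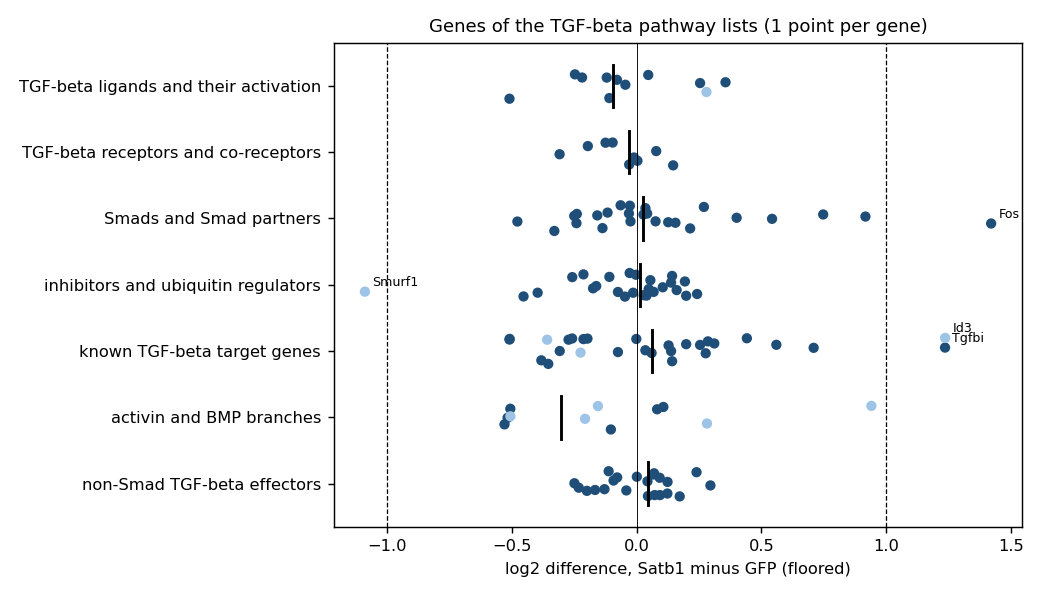
Floored log2 difference (Satb1 minus GFP) of each gene above the floor on at least 1 array in the 7 pathway lists, dark where it was above the floor on both arrays and light where on 1, with the median of the dark points as a black bar and 2-fold as dashed lines. Fos, Id3, Tgfbi and Smurf1 are the genes beyond 2-fold, and the medians lie between -0.30 and 0.06.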

How the data were processed

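RNA of 2 arrays was labelled with biotin as cRNA and measured as MAS5 intensity. The authors used MAS5, per the submitters' processing notes, and the deposited intensities were used on their linear scale and then as log2. The sources used here name neither the version nor the scaling target. The trimmed mean, without the lowest and highest 2% of values, was 497 on both arrays. The precision is limited by the number of arrays. Symbols came from the platform annotation, updated by Entrez ID through the GRCm38.p6 gene table (34741 of 34945). The 932 probe sets with several symbols and the 9160 without any were not used. Each gene was represented by its probe set of highest mean log2 intensity. Genes whose floored intensities were 2-fold or more apart were counted. Members, lists and the rule for named genes (list genes 2-fold apart, otherwise up to 3 with the largest difference above the floor, and the 2 brightest) were chosen with earlier results of these data known. No test was possible with 1 array per group. Python 3.11.15 with pandas 2.3.3 was used. The calling steps were tested on simulated data with changes larger than 2-fold in bright genes and less noise than these arrays. That test does not cover changes in dim genes or changes near 2-fold. Of the marker lists, those of erythroid, B lineage, T lineage and stromal and endothelial cells had 0 genes 2-fold apart, and the stem cell list had 1 higher and 1 lower of 9 measured.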

Additional observations from a re-analysis of the deposited data

How the results depend on the processing

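No paired analysis was possible because each group held 1 array, and no array could be left out. Tgfbi was 2-fold higher under all 8 alternatives, with the mean over its 4 probe sets giving 1.03 against 1.24, and was the only member gene 2-fold apart under them and at a threshold of 1.5-fold. At 3-fold, 0 members were counted. The members' median log2 difference ranged from 0.05 with the mean over probe sets to 0.14 with median centring. The mean over probe sets, which draws in probe sets below the floor for the receptors and Smad3, also gave -0.45 for Tgfbr1, 0.29 for Tgfbr2 and -0.56 for Smad3. It gave -0.12 for Smad4 and -0.40 for Smad7, whose probe sets were all above the floor. Of the pathway genes that are not members, 3 were 2-fold apart as reported (Fos, Id3 and Smurf1). A floor at the 25th percentile gave 15, and the count was 27 with no floor and 13 with a pseudocount of 16, where 7.78%, 19.0% and 5.14% of all genes were 2-fold apart. A floor at the 75th percentile gave 1, and it was 5 after quantile normalization, 7 at 1.5-fold and 0 at 3-fold. With the mean over probe sets it was 4, namely Fos, Id3, Jund and Tgif2. Which dim genes are counted is thus limited by their signal over background.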

Other observations

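The activin and BMP branches, which share Smad4 with TGF-beta, were mostly dim: of 26 measured genes 15 were below the floor on both arrays and 6 above it on both. Of the 26, 0 were 2-fold apart as reported, and Bmp1 was 2-fold higher after quantile normalization. The largest differences above the floor on both arrays were those of Acvr1b, Acvr2a and Acvr2b. Acvr1b, a type I receptor that also acts on Smad2 and Smad3, read 977.8 on the array labelled Satb1 and 1388.5 on the array labelled GFP (log2 -0.51). The type II receptor gene Acvr2a read 161.3 on the array labelled Satb1 and 230.8 on that labelled GFP (log2 -0.52). Acvr2b read 147.8 on the array labelled Satb1 and 213.3 on the array labelled GFP (log2 -0.53), while another of its probe sets, above the floor on the array labelled Satb1 alone, read 77.7 on it and 11.4 on that labelled GFP. Acvr1 read 239.0 on the array labelled Satb1 and 221.9 on that labelled GFP (log2 0.11), with another probe set at -0.53, and Acvr1c was below the floor on both. The BMP receptor gene Bmpr2, the brightest of the list, read 1278.7 on the array labelled Satb1 and 1208.1 on the array labelled GFP.

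Effectors through which TGF-beta acts without Smads had 0 of 23 measured genes 2-fold apart and a median log2 difference of 0.04 over the 22 above the floor on both arrays. The kinase gene Akt1 read 1696.9 on the array labelled Satb1 and 1382.6 on the array labelled GFP (log2 0.30). The stress kinase gene Mapk8 read 441.7 on the array labelled Satb1 and 525.0 on that labelled GFP (log2 -0.25), and all 4 of its probe sets that passed the floor on both arrays were lower. The small GTPase genes Cdc42 (11677.4 on the array labelled Satb1 and 11104.8 on the array labelled GFP) and Rhoa (8848.2 on the array labelled Satb1 and 7492.8 on that labelled GFP) were the brightest.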
